A study of Mus musculus with 4 samples.

Results

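The 10 imprinted genes described here, known as regulators of embryonic growth, were measured in blood stem and progenitor cells of the mouse fetal liver with and without the chromatin reader Brpf1: Igf2, Igf2r, Grb10, Dlk1, Ndn, Mest, Plagl1, Peg3, H19 and Meg3. They were chosen by name, and all 10 were found by symbol among the 20207 genes of the deposited table. The cells were LSK cells, the sort fraction that lacks lineage markers and carries Sca-1 and Kit, from embryos at E14.5. The labels give 2 Brpf1-null and 2 wildtype samples as 2 pairs, each sample about 10000 cells pooled from 4 embryos, read as oligo-dT-primed RNA libraries. The sources used here do not give the allele or any driver of the Brpf1 deletion. The deposited values of the 2 pairs were the same in every row, with 0 Brpf1-null and 0 wild-type values that differed. They were therefore read as 1 library per genotype (n = 1). Which pair gave these values, or whether reads of both pairs were merged, cannot be told from them.

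An imprinted gene is read from the copy inherited from 1 parent, marked by DNA methylation laid down in the egg or sperm. Many paternally expressed genes promote growth of the embryo and placenta, and many maternally expressed genes restrain it. In blood, the Dlk1-Meg3 domain and the H19-Igf2 domain are known from mouse studies for roles in stem cell maintenance and quiescence, and Igf2 from fetal liver cells feeds the expansion of stem cells. Which copy was read was not measured here, so "paternally" and "maternally" below name the known expressed copy.

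Of the 10 genes, 6 were lower in the Brpf1-null library by at least 1.5-fold, 2 lay within 1.5-fold, and 2 were too low to be counted. The 6 were Igf2, Grb10, Dlk1, Ndn, Mest and Meg3, and they were 2.06-fold to 3.45-fold lower. H19 and Igf2r lay within 1.5-fold. The values are RPKM, reads scaled by transcript length and by library size. A gene was kept at a mean of at least 1 RPKM over both libraries, which 8 of the 10 genes reached. Of these, Meg3 was under 1 RPKM in Brpf1-null and reached the mean through its wild-type value. A gene kept in this way can only lie lower in Brpf1-null. The 1.5-fold limit was applied to log2 of the values with a pseudocount of 1 RPKM, so the change of a low gene is understated. Among all 9380 kept genes, 9.42% were lower by that rule and 14.1% were higher, with a median log2 change of 0.04, and the 8 kept genes had a median of −0.95. With the libraries centred on their own medians, the median log2 change was −0.07, and 12.8% of all kept genes were lower and 10.2% higher. Among the 5580 genes between 1 and 10 RPKM, the range that holds 7 of the 8, 10.1% were lower and 15.2% higher. No gene of the set was higher by 1.5-fold (0 of 8). With 1 library per genotype there is no replicate check and no test. In sorted pools, fewer cells of a type and less RNA per cell cannot be told apart. All folds are ratios of RPKM, and the range after each is its 95% counting interval, the exact Clopper-Pearson interval of the reads. It covers counting error only and treats PCR copies as separate molecules. That interval lay below 1 (lower in Brpf1-null) for 32.4% of 9258 kept genes and above 1 for 40.0%, so an interval that excludes 1 is common here. It lay below 1 for 7 of the 8 kept genes of the set.

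The libraries held about 22194352 reads (Brpf1-null) and 23618205 reads (wild-type), recovered from the spacing of the low values. Brpf1 itself was at 2.15 RPKM in the Brpf1-null library, against 2.59 RPKM in the wild-type library, and a value for the entire gene says little about an exon that may be missing. Of the genes that define the gate, Kit was at 21.3 RPKM in the Brpf1-null library and 25.6 RPKM in the wild-type library, and Ly6a, which encodes Sca-1, at 9.51 RPKM in Brpf1-null and 10.6 RPKM in wild-type. Lineage genes were not all low: Itgam, a myeloid integrin, was at 6.66 RPKM in Brpf1-null and 2.92 RPKM in wild-type.

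**Figure D1:**
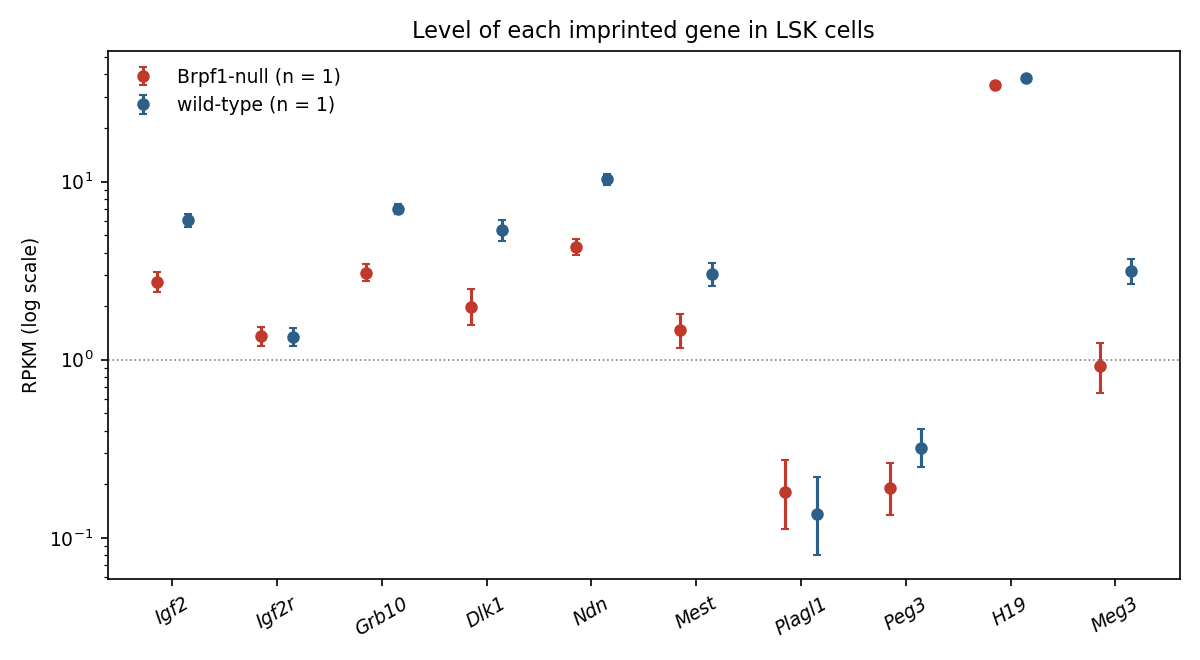
RPKM (log scale) of the 10 imprinted genes, the Brpf1-null library left of the wild-type library, with 95% exact Poisson counting intervals and a dotted line at 1 RPKM. The 6 lower genes sit in the Brpf1-null library below wild-type with intervals that do not meet, and H19 stands above all others in both libraries. Plagl1 and Peg3 lie under 1 RPKM in both libraries, and Meg3 does so in Brpf1-null alone.

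The growth factor and its handling were read first. Igf2, the fetal growth factor of the insulin family, was at 2.74 RPKM in the Brpf1-null library and 6.09 RPKM in the wild-type library, 2.22-fold lower (1.90 to 2.59), on about 234 reads in Brpf1-null and 552 in wild-type. Of the kept genes, 4.18% had a lower log2 change than Igf2. Igf2r, the receptor that clears IGF2 by carrying it to lysosomes, was at 1.355 RPKM in Brpf1-null and 1.345 RPKM in wild-type, a ratio of 1.01 (0.849 to 1.19), on about 267 and 282 reads. The ligand was thus lower and its clearance receptor nearly level. Per length, Igf2 was at 2.02 times the level of Igf2r in the Brpf1-null library and at 4.53 times its level in wild-type, and the fold of Igf2 exceeded that of Igf2r by 2.24 times (1.77 to 2.82, counting error only). Grb10, an adaptor that binds the insulin and IGF1 receptors and dampens their signal, was at 3.09 RPKM in Brpf1-null and 7.04 RPKM in wild-type, 2.28-fold lower (2.01 to 2.60). Igf2 promotes growth and Grb10 restrains it, and their folds differed by a factor of 1.03 (0.839 to 1.26).

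Igf2 has 4 RefSeq-linked transcripts of 650 to 4722 bases, and its fold interval widens to 1.51 to 3.28 if the shortest is taken. In the GENCODE M21 annotation, 62.8% of its exonic bases are shared with Gm49394 on the same strand, and reads of these genes cannot be told apart.

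Dlk1, a transmembrane protein of the Notch ligand family without the receptor-activating domain, was at 1.98 RPKM in the Brpf1-null library and 5.33 RPKM in the wild-type library. That is 2.69-fold lower (2.05 to 3.54, from about 75 and 214 reads). Ndn, which encodes necdin, a growth suppressor known to restrain cycling of mouse blood stem cells, was the most abundant of the protein-coding members in both libraries. It was at 4.31 RPKM in Brpf1-null and 10.3 RPKM in wild-type, 2.39-fold lower (2.11 to 2.71). Mest, a predicted hydrolase of the endoplasmic reticulum tied to fetal growth, was at 1.47 RPKM in Brpf1-null and 3.03 RPKM in wild-type, 2.06-fold lower (1.59 to 2.72). Its neighbour Copg2, a coat protein gene of vesicle transport, was at 2.55 RPKM in Brpf1-null and 11.0 RPKM in wild-type, 4.32-fold lower (3.73 to 5.01). In GENCODE M21, 23.1% of the exonic bases of Mest lie opposite exons of Copg2. The sources used here do not say whether reads were counted by strand, so the reads of Mest and Copg2 in the shared stretch cannot be told apart.

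The zinc finger factors were near the floor of the libraries. Plagl1, a transcription factor known to regulate several of the other genes in mouse, was at 0.180 RPKM in Brpf1-null and 0.137 RPKM in wild-type, about 21 and 17 reads. Its ratio was 1.31 with a counting interval of 0.661 to 2.65, so no difference was detectable at this depth. Peg3, a zinc finger protein that acts in growth and cell death, was at 0.190 RPKM in Brpf1-null and 0.319 RPKM in wild-type, 1.68-fold lower (1.10 to 2.58, from about 37 and 66 reads). Both were left out of the counts by the filter.

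The long non-coding RNAs parted. H19, the RNA from the maternal copy beside Igf2, was the most abundant of the set, at 34.8 RPKM in the Brpf1-null library and 38.2 RPKM in the wild-type library, 1.10-fold lower (1.03 to 1.17). Meg3, the RNA from the maternal copy beside Dlk1, was at 0.918 RPKM in Brpf1-null and 3.16 RPKM in wild-type, 3.45-fold lower (2.44 to 5.06, from about 40 and 148 reads). In GENCODE M21, 6.79% of its exonic bases lie opposite Gm26906. Meg3 had the largest fold of the 10 genes as a ratio of RPKM, and 260 of the 9380 kept genes had a lower log2 change than its −1.12. Meg3 passed the filter only through its wild-type value, so this rank is a description. H19 made up 68.2% of the summed RPKM of the 10 genes in Brpf1-null and 51.0% in wild-type. Without H19, the other 9 summed to 16.2 RPKM in Brpf1-null and 36.7 RPKM in wild-type, 2.26-fold lower.

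**Figure D2:**
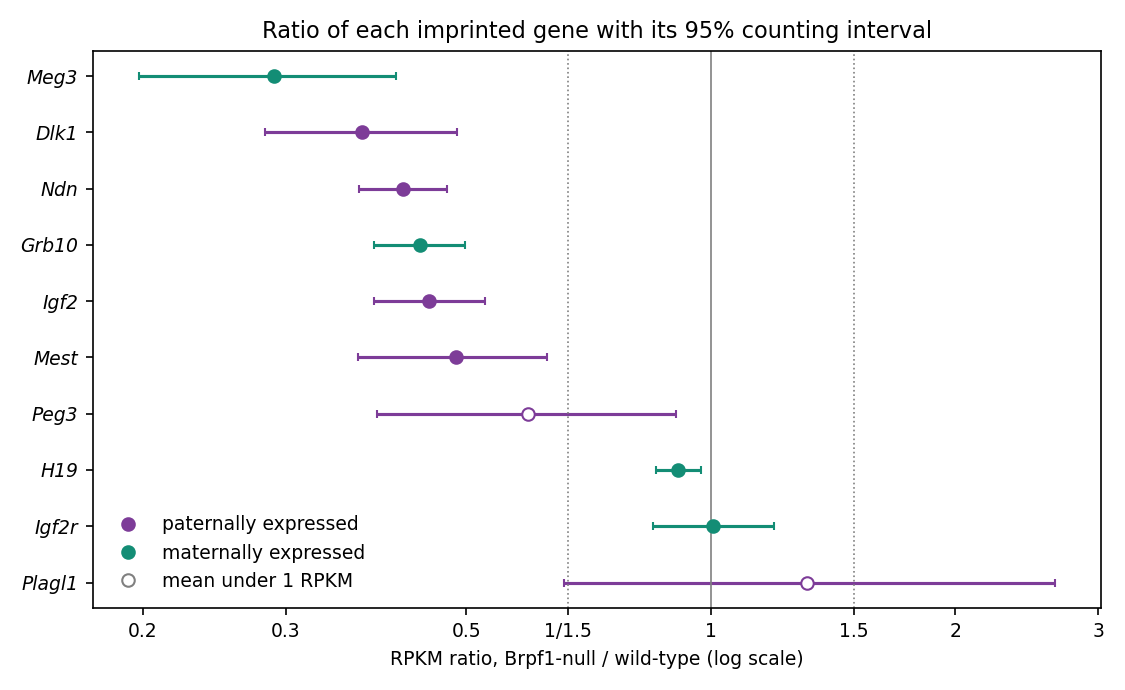
RPKM ratio of Brpf1-null to wild-type (log scale) with 95% counting intervals, coloured by the known expressed copy, with open circles for genes with a mean under 1 RPKM. Dotted lines mark 1.5-fold either way. Genes of both parental classes stand left of the lower line, from Meg3 (3.45-fold lower) to Mest (2.06-fold lower), and H19 and Igf2r lie near 1.

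The order of the levels was much alike. In wild-type it ran H19, Ndn, Grb10, Igf2, Dlk1, Meg3, Mest, Igf2r, Peg3 and Plagl1, and in Brpf1-null Meg3 stood below Mest and Igf2r. Not all neighbours in the order were separated beyond counting error. In Brpf1-null, the intervals of Grb10 and Igf2, Igf2 and Dlk1, Dlk1 and Mest, Mest and Igf2r, Igf2r and Meg3, and Peg3 and Plagl1 overlapped. In wild-type, those of Grb10 and Igf2, Igf2 and Dlk1, and Meg3 and Mest overlapped.

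Lower genes were found in both parental classes. Of the 6 paternally expressed genes, 4 were kept and 4 were lower, with a median log2 change of −1.004. Of the 4 maternally expressed genes, 4 were kept, 2 were lower (Meg3 and Grb10) and 2 lay within 1.5-fold (H19 and Igf2r), with a median of −0.55. With so few genes these medians are descriptions, and no difference between the classes was tested. Summed, the paternally expressed genes were at 10.9 RPKM in Brpf1-null and 25.2 RPKM in wild-type, and the maternally expressed at 40.2 RPKM in Brpf1-null and 49.7 RPKM in wild-type, of which H19 was the larger part.

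In the reciprocally imprinted domains, a paternally and a maternally expressed gene lie side by side. On chromosome 7, Igf2 was at 0.0788 of the level of H19 per length in Brpf1-null and at 0.160 in wild-type, so the fold of Igf2 exceeded that of H19 by 2.03 times (1.71 to 2.40, counting error only). On chromosome 12, Dlk1 was at 2.16 times the level of Meg3 in Brpf1-null and 1.69 times in wild-type. The folds of Dlk1 and Meg3 differed by a factor of 1.28 with an interval of 0.821 to 2.07, so a difference between them was not detectable at this depth. Of the other genes of the Dlk1-Meg3 domain, Rian was at 0.352 RPKM in Brpf1-null and 0.343 RPKM in wild-type, about 7 reads in each. Its ratio of 1.03 had a counting interval of 0.319 to 3.56, so these reads cannot tell a level gene from one changed 3-fold. Mirg was listed at 0 in Brpf1-null and at 0.456 RPKM in wild-type (about 14 reads), and Dio3 was listed at 0 in both. A listed 0 is not read as a low level, since the file gives no read counts and those here are recovered from RPKM values.

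The promoter sequences of the set are shown for genes with the largest folds and for Igf2r, whose level barely differed. Imprints are kept as methylated CG dinucleotides, but whether these windows hold the regions that carry the imprints was not examined. They come from RefSeq on GRCm38.p6, not the mm9 build of the files, and run from 250 bases before to 50 bases after an annotated start. Each is written 5′ to 3′ in lower case with every CG dinucleotide in capitals.
Dlk1, chr12:109452573-109452872, plus strand: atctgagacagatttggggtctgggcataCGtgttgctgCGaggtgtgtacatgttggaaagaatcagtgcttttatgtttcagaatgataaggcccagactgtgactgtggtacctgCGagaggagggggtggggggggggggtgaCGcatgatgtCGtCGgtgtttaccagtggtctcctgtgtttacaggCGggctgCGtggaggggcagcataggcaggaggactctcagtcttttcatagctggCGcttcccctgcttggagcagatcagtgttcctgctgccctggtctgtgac
Meg3, chr12:109540746-109541045, plus strand: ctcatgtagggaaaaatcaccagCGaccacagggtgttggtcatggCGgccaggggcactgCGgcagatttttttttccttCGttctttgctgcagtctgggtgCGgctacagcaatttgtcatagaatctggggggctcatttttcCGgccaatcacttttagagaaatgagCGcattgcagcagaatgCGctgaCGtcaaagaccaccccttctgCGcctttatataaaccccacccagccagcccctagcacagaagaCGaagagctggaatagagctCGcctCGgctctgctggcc
Ndn, chr7:62348027-62348326, plus strand: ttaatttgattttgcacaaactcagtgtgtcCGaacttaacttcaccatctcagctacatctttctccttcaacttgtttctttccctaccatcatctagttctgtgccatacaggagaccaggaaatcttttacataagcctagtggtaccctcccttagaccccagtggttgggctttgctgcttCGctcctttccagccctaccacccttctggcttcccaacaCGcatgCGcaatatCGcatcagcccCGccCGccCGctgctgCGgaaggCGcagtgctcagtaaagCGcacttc
Grb10, chr11:12037371-12037670, minus strand: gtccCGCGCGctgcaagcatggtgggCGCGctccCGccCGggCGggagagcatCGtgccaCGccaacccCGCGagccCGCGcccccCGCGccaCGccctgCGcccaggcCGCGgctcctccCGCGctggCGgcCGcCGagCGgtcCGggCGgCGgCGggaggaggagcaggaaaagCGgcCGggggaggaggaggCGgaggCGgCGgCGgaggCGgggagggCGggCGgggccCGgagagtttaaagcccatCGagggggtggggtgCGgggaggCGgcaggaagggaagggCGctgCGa
Igf2r, chr17:12769657-12769956, minus strand: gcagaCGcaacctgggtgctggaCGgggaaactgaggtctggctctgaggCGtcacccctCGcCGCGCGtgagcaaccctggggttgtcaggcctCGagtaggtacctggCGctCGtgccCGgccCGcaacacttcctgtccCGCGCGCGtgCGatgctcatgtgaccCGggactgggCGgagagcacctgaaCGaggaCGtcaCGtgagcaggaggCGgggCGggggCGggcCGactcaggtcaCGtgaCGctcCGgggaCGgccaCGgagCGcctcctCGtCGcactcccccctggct
RefSeq gave 16 such windows for 9 of the 10 genes, all but H19, and several genes have more than 1 start. The windows of the genes with lower levels spanned a wide range. Grb10 at the start shown had 45 CG dinucleotides, more than 98.1% of all 32817 windows, Meg3 had 13 and Ndn 11, and Dlk1 had 9, against a median of 7 over all windows. Igf2r had 34, more than 92.3% of windows. The second annotated starts had fewer: that of Grb10 (chr11:12027922-12028221) had 9, and that of Meg3 had 1. The hexamer TGCCGC, which the imprint-keeping factor ZFP57 binds when methylated, was in 6 of the 16 windows on either strand (in the windows of Grb10, Igf2, Meg3, Mest and Plagl1, with 2 overlapping windows of Mest) and in 11.6% of all windows. The palindrome GGGGCCCC, of the kind that PLAGL1 binds, was in 1 of the 16 (Peg3) and in 1.07% of all windows. A match is a description of the letters and was not tied to binding or to the change in level.

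**Figure D3:**
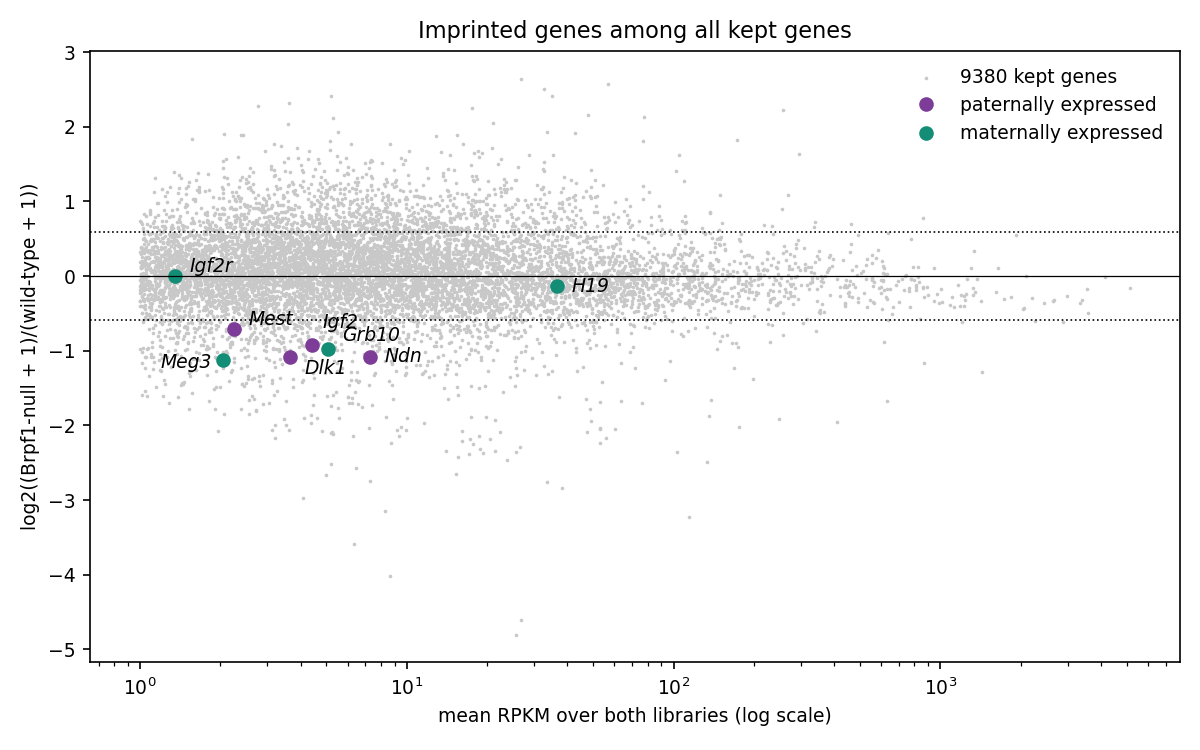
log2 change with a pseudocount of 1 RPKM against mean RPKM (log scale) for the 9380 kept genes in grey, with the 8 kept imprinted genes in colour and dotted lines at 1.5-fold. Of these, 6 lie below the lower line at 2 to 8 RPKM, and Igf2r and H19 lie near 0.

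Of the imprinted genes outside the growth set, 14 of 18 kept (77.8%) lay within 1.5-fold, near the 76.5% of all kept genes. No difference from the growth set was tested, and whether these genes are imprinted in LSK cells was not measured. Of 21 other paternally expressed genes in the table, 5 were kept and all 5 lay within 1.5-fold, with a median log2 change of −0.03. Sgce, a sarcoglycan, was at 5.65 RPKM in Brpf1-null and 8.05 RPKM in wild-type, and Peg12 at 9.46 RPKM in Brpf1-null and 7.35 RPKM in wild-type. Inpp5f, an inositol phosphatase, was at 6.02 RPKM in Brpf1-null and 4.65 RPKM in wild-type. Slc38a4, an amino acid transporter of liver and placenta, was under the filter at 0.160 RPKM in Brpf1-null and 1.55 RPKM in wild-type, 9.66-fold lower (5.58 to 18.1). Zrsr1, just under the filter at a mean of 0.985 RPKM, went the other way. It was at 1.28 RPKM in Brpf1-null and 0.690 RPKM in wild-type, 1.86-fold higher (1.39 to 2.52). Snrpn and Snurf, which share a transcript, were listed at 0 in both libraries.

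Of 24 other maternally expressed genes, 13 were kept, 2 were lower and 2 higher, and the other 9 lay within 1.5-fold. The shares over all kept genes were 9.42% lower and 14.1% higher. The median log2 change of the 13 was −0.11. The lower genes were Copg2, given above beside Mest, and Cd81, a tetraspanin, at 256 RPKM in Brpf1-null and 427 RPKM in wild-type, 1.67-fold lower (1.63 to 1.72). The higher genes were Tssc4, at 27.5 RPKM in Brpf1-null and 8.09 RPKM in wild-type, and Nap1l4, a histone chaperone, at 84.1 RPKM in Brpf1-null and 51.0 RPKM in wild-type. Cd81, Tssc4 and Nap1l4 are known as imprinted mainly in the placenta. Cdkn1c, the cyclin-dependent kinase inhibitor p57 that holds adult stem cells in quiescence, was at 3.98 RPKM in Brpf1-null and 6.40 RPKM in wild-type, 1.61-fold lower (1.33 to 1.97) and just inside 1.5-fold with the pseudocount, but past it at −0.68 when centred. Ube3a, a ubiquitin ligase, was at 5.86 RPKM in Brpf1-null and 4.74 RPKM in wild-type.

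Of 26 neighbours of the growth genes in their domains, 8 were kept. With the pseudocount, 1 (Copg2) was lower, 0 were higher and 7 lay within 1.5-fold, against 9.42% lower and 14.1% higher of all kept genes. Mrpl23, a mitochondrial ribosomal protein gene next to H19, was at 125 RPKM in Brpf1-null and 154 RPKM in wild-type. Ddc, beside Grb10, was at 1.11 RPKM in Brpf1-null and 2.06 RPKM in wild-type, 1.86-fold lower (1.31 to 2.68) by the ratio of RPKM. Its log2 change of −0.54 passed the limit, at −0.65, when the libraries were centred. Phactr2, near Plagl1, was at 1.61 RPKM in Brpf1-null and 0.925 RPKM in wild-type, 1.74-fold higher (1.23 to 2.42) by that ratio. Slc22a3, near Igf2r, was at 5.35 RPKM in Brpf1-null and 6.43 RPKM in wild-type. Airn, the antisense RNA of the Igf2r domain, was listed at 0 in Brpf1-null and at 0.307 RPKM in wild-type.

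In the rest of the insulin-like growth factor axis, 2 of 7 kept genes were lower and 2 higher, against 9.42% lower and 14.1% higher of all kept genes. With 7 genes these counts are descriptions. Igf1, another growth factor of the insulin family, was at 0.372 RPKM in Brpf1-null and 1.83 RPKM in wild-type. That is 4.91-fold lower (2.67 to 10.8, from about 11 and 60 reads). Like Meg3, Igf1 passed the filter only through its wild-type value. Igfbp4, a secreted protein that binds IGFs and blocks them, was at 72.2 RPKM in Brpf1-null and 26.2 RPKM in wild-type, 2.76-fold higher (2.63 to 2.89). The receptor Igf1r, which carries the growth signal of IGF2, was at 2.00 RPKM in Brpf1-null and 2.42 RPKM in wild-type, and Insr at 1.24 RPKM in Brpf1-null and 0.962 RPKM in wild-type. Among the RNA-binding proteins named for Igf2 mRNA, Igf2bp2 was 1.97-fold lower (1.76 to 2.22), Igf2bp1 1.75-fold higher (1.63 to 1.89) and Igf2bp3 at 16.0 RPKM in Brpf1-null and 14.1 RPKM in wild-type.

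Markers of liver and red cells were lower as well. Dlk1, Igf2 and H19 are known as products of fetal hepatocytes and their precursors. Of 18 hepatocyte markers, 17 were kept, 16 were lower and 1 lay within 1.5-fold, with a median fold of 3.79 lower. Their summed level was 589 RPKM in Brpf1-null and 2215 RPKM in wild-type, and 0 of the 18 were at 0 in both libraries (Apob was listed at 0 in Brpf1-null alone). Afp, the fetal serum protein, was at 69.1 RPKM in Brpf1-null and 283 RPKM in wild-type. All 9 kept erythroid markers of 11 were lower, with summed levels of 95.2 RPKM in Brpf1-null and 645 RPKM in wild-type, and Hba-a1 and Hba-a2, near-identical copies, were listed at 0 in both. Of 12 stromal markers, 1 was kept, and their sum was 3.47 RPKM in Brpf1-null and 5.02 RPKM in wild-type, with Pdgfra, Des and Cspg4 listed at 0 in both. Of 9 endothelial markers, 5 were kept, with 2 lower and 1 higher, where 9.42% of all kept genes were lower and 14.1% higher. The LSK gate list had 6 kept genes, 0 lower and 1 higher (Cd34). When the libraries were centred, 0 endothelial and 0 gate genes were higher. The 6 lower imprinted genes had folds of 2.06 to 3.45, below the hepatocyte median, and H19 had 1.10. The kept hepatocyte markers ran from 1.29-fold (Krt8) to 6.10-fold lower (Apoh), a range that spans the folds of those 6 genes. The part of these cells in the imprinted gene levels was not tested.

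**Figure D4:**
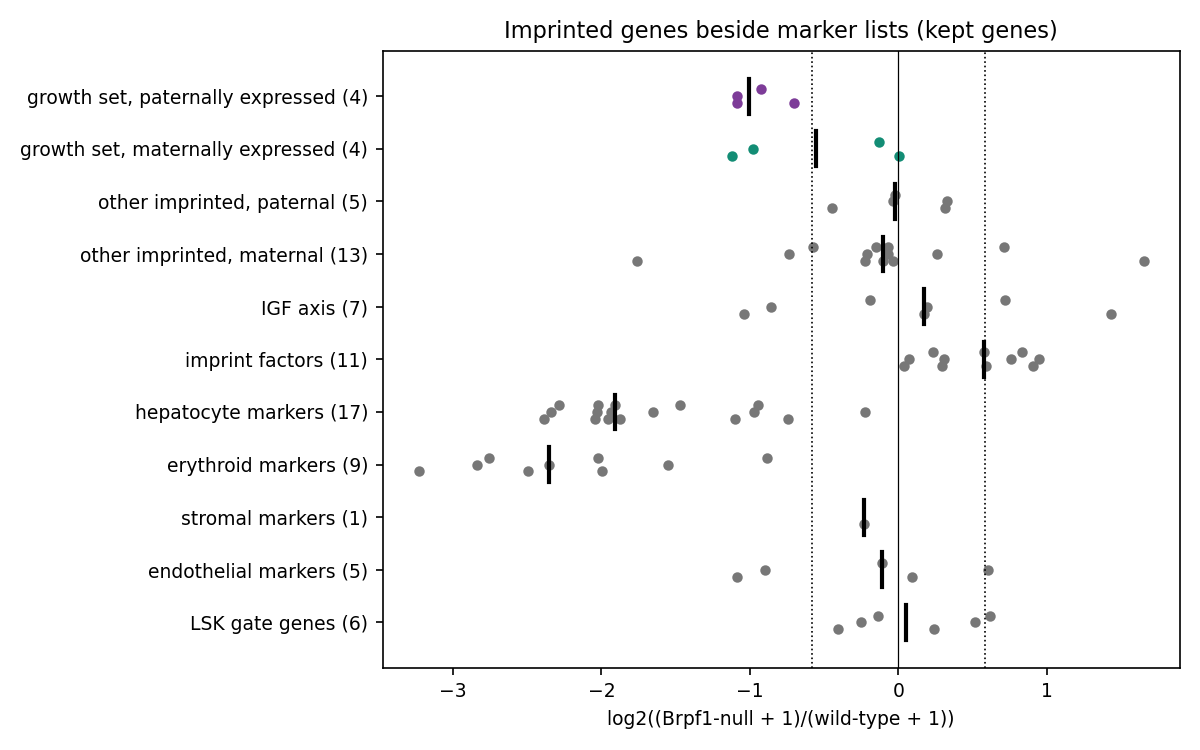
log2 change with a pseudocount of 1 RPKM of each kept gene by list, with the number of kept genes in brackets, a black bar at the list's median and dotted lines at 1.5-fold. The paternally expressed growth genes centre on −1.004 and the other paternally expressed genes on −0.03. The medians of the hepatocyte and erythroid markers lie further to the left, and some of these markers overlap the growth genes.

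The count of lower genes was the same under each other scaling. Centring the libraries on their medians moved the median log2 change of all kept genes by −0.11, from 0.04 to −0.07, so not to 0. With that, with quantile-normalized values and with a trend on transcript GC content taken out, 6 of the 8 kept genes were lower and 0 higher. Centring lowered every log2 change alike, so it could not make the count of lower genes smaller. The count rests on low levels: with a pseudocount of 5 RPKM, 1 of the 8 (Ndn) was past 1.5-fold, and under a filter at a mean of 5 RPKM, 2 of the 3 genes left (Ndn and Grb10) were. Igf2r, at 0.01 as deposited, was at −0.11 after centring, so it has no stable direction. H19, at −0.13 as deposited, was at −0.24 after centring and −0.37 after the GC trend was removed.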

How the data were processed

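RNA of sorted LSK cells was sequenced from oligo-dT-primed libraries, and reads were aligned with TopHat to mm9, per the submitters' processing notes. The sources used here do not name the annotation, the counting program, its use of strand or any filter. As their measurements the authors deposited RPKM values for pair 1 and FPKM values for pair 2, per the file headers, and these were identical over 20207 genes. The deposited ratio and its log2 (wild-type over Brpf1-null) were not used further: all 12624 equalled the ratio of the values within 0.001.

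Values were compared as log2((Brpf1-null + 1)/(wild-type + 1)), and genes were kept at a mean of at least 1 RPKM (9380 kept, 10827 removed). The size of each library was read from the steps between low RPKM values, over genes with 1 RefSeq-linked transcript length in GENCODE M21. With them, 67.8% of 1175 Brpf1-null and 66.5% of 1152 wild-type values were whole reads within 0.1, against 29.7% and 25.5% with sizes raised by 5%. Lengths were matched for 98.1% of symbols. Read numbers use the median RefSeq-linked length and are approximate. The steps were tested on simulated data. With 1 library per genotype the planned limma test was not run, and no likeness of pattern between genes was computed. The genes, the lists and the rule for named genes (all 10 members, up to 6 kept genes per list by absolute log2 change) were chosen with earlier results of these data known, and not every gene the rule takes is printed. Genes under the filter, and Slc22a3, Igf2bp3, Ctcf, Tet2, Smchd1 and Krt8, were named after their values were seen. Python 3.11.15, numpy 2.4.6, scipy 1.17.1 and statsmodels 0.14.6 were used.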

Additional observations from a re-analysis of the deposited data

How the results depend on the processing

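No paired analysis was possible because the tables of the pairs held the same values, which also left no replicate to leave out. Of 8 kept genes, 6 were at least 1.5-fold lower with the values as deposited, with a pseudocount of 0.1 RPKM, when centred, when quantile-normalized and with the GC trend taken out, and 6 of 10 with no filter. With a pseudocount of 5 RPKM the count was 1 (Ndn), since the other lower genes lie near or below that pseudocount, and the medians were −0.54 for the paternally and −0.29 for the maternally expressed genes. Under a filter at a mean of 5 RPKM, 2 of the 3 genes left were lower (Ndn and Grb10). The number of genes at least 1.5-fold higher was 0 throughout. Over all settings, the log2 changes of the 6 lower genes ran from −1.68 to −0.31, with no change of sign. Another pseudocount or filter cannot change a sign, and centring lowered every log2 change. Only quantile normalization and the GC trend could have changed the sign of a lower gene. The share of higher genes among all kept genes past 1.5-fold was 59.9% as deposited, 44.4% when centred and 49.8% with the GC trend taken out. Taking the shortest RefSeq-linked transcript, an alternative chosen after seeing the data, left 7 of 8 genes with an interval below 1. Depth limits Plagl1 and Peg3, at about 17 to 66 reads.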

Other observations

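Of 17 factors that keep or read imprints, 11 were kept, of which 5 were at least 1.5-fold higher in the Brpf1-null library, 0 lower and 6 within 1.5-fold, with a median log2 change of 0.58, against 14.1% of all kept genes higher and 9.42% lower. Dnmt1, which copies DNA methylation at replication, was at 31.7 RPKM in Brpf1-null and 16.4 RPKM in wild-type, and its partner Uhrf1 at 76.2 RPKM in Brpf1-null and 42.4 RPKM in wild-type. Dnmt3a, a methyltransferase that sets new marks, was at 16.5 RPKM in Brpf1-null and 8.10 RPKM in wild-type, and Dnmt3b at 41.0 RPKM in Brpf1-null and 26.9 RPKM in wild-type. With the libraries centred, an alternative chosen after seeing the data, 4 were higher, and Dnmt3b, at a log2 change of 0.48, lay inside the limit. Ehmt1, a histone methyltransferase, was at 11.6 RPKM in Brpf1-null and 6.48 RPKM in wild-type. Trim28, the corepressor that ZFP57 recruits to imprints, was at 110 RPKM in Brpf1-null and 73.6 RPKM in wild-type, just inside 1.5-fold with the pseudocount. Ctcf, the insulator protein of the H19-Igf2 domain, was at 11.9 RPKM in Brpf1-null and 9.93 RPKM in wild-type. Tet2 and Smchd1 were nearly level, with log2 changes of 0.07 and 0.04. Zfp445, another zinc finger factor of imprints, was under the filter at 0.582 RPKM in Brpf1-null and 0.799 RPKM in wild-type. Zfp57 was under it as well, at 0.0928 RPKM in Brpf1-null and 0.676 RPKM in wild-type, 7.29-fold lower (2.67 to 29.3). DNA methylation was not measured.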
